A study of Mus musculus with 18 samples.

Results

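The paired clusters of miR-23, miR-27 and miR-24 are represented on the array by 5 mature miRNAs. mmu-miR-23a and mmu-miR-27a come from the a cluster, mmu-miR-23b and mmu-miR-27b from the b cluster, and mmu-miR-24 has a mature sequence made by both (the prefix is left out below). They were chosen by name, as the rows of the array files that carry these 5 miRNA names and are not control spots. All 5 passed the filter on dim probes, and they are 5 of the 69 miRNAs tested and of the 576 names on the array. Liver miRNA was measured in male Muta™Mouse (transgenic mouse strain 40.6), aged 25 weeks, that received benzo(a)pyrene (BaP) in olive oil by oral gavage every day for 28 days. BaP is a polycyclic aromatic hydrocarbon that the liver oxidises to DNA-binding metabolites. The groups were olive oil alone (control, 3 arrays) and 25, 50 or 75 mg/kg/day BaP (5 arrays each), with 1 array per animal and liver taken 3 days after the last dose. All groups, controls included, carry the lacZ reporter transgene, and whole liver tissue was used, so fewer cells of a type and less RNA per cell cannot be told apart.

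MicroRNAs are short RNAs that guide Argonaute proteins to messenger RNAs, mainly by pairing of the seed near their 5′ end, and lower the output of those messengers. The miR-23, miR-27 and miR-24 hairpins are transcribed together, in this order, and cut from a shared primary transcript, and the arrangement exists as an a and a b copy. In general knowledge, miR-27 is known for restraining lipid metabolism and adipocyte differentiation, and miR-27b also for repressing the cytochrome P450 CYP1B1, which oxidises polycyclic aromatic hydrocarbons. miR-23a and miR-23b are known to repress mitochondrial glutaminase, and miR-24 to repress cell cycle genes and the histone H2AX of the DNA damage response.

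The mature sequences decide what a probe can tell apart, so those that RefSeq (GRCm38.p6) lists for the members are given here, 5′ to 3′ with the seed (bases 2 to 8) in capitals.
miR-23a-3p: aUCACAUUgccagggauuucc
miR-27a-3p: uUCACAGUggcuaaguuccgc
miR-27b-3p: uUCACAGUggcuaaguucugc
miR-24-3p: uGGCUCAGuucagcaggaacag
miR-27a-3p lies at chr8:84208727-84208747 and miR-27b-3p at chr13:63300760-63300780, both on the plus strand. They share the seed UCACAGU, which no other mature miRNA of the table holds, and differ at 1 of 21 bases, C19U (miR-27a first, counted from 1 at the 5′ end). miR-23a-3p lies at chr8:84208563-84208583 on the plus strand. miR-24-3p lies at chr8:84208875-84208896 and at chr13:63301251-63301272, both on the plus strand, and its seed GGCUCAG was shared by 5 names.

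The hairpins of miR-24 are shown because they are the place where the origin of the shared miRNA could be read. The mature miR-24-3p is in capitals in each.
Mir24-2 (a cluster): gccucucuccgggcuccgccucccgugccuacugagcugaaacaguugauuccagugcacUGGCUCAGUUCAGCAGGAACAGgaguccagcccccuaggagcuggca
Mir24-1 (b cluster): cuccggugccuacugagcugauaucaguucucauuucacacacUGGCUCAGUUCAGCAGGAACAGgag
The mature strand is the same in both, and the opposite (passenger) strands are not. In the passenger strands, the bases after the 16 shared first bases are in capitals.
miR-24-1-5p: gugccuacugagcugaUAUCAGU
miR-24-2-5p: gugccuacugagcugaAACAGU
The a cluster (Mir23a, Mir27a, Mir24-2) spans 404 bases at chr8:84208518-84208921 on the plus strand. Mir23a and Mir27a overlap no other gene of the annotation, and Mir24-2 overlaps the miRNA gene Mir3074-2. The b cluster (Mir23b, Mir27b, Mir24-1) spans 792 bases at chr13:63300484-63301275 on the plus strand, and all 3 hairpins lie within the protein-coding gene Aopep. Mir24-1 also overlaps the miRNA gene Mir3074-1.

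None of the passenger strands could be followed. miR-27a* and miR-27b* had 4 probes each, and miR-24-1* and miR-24-2* had 2 each. A probe of these was present, meaning that the scanner software marked at least a 0.5 share of its spots as clear of background, on 0 of 18 arrays. So miR-24 is 1 value per array here, and the parts of it made by the a and the b cluster cannot be told apart. No probe of the files used here carried the name miR-23a* or miR-23b*.

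The arrays lay on 3 slides, and in the normalised median signal every member except miR-24 differed more between slides than between doses. The first slide carried 7 arrays, 1 of them a control and 2 from every dose. The second carried 4, 2 from 50 and 2 from 75 mg/kg/day, without a control. The third carried 7, among them 2 controls, 3 from 25 and 1 each from 50 and 75 mg/kg/day. The arrays of a slide shared a scan date, so slide, scan day and the animals on it cannot be told apart. Arrays had 5.72% to 16.5% of their spots well above background, and both extremes were at 25 mg/kg/day (replicate 4 on slide 3 and replicate 1 on slide 1). Values below are log2 median spot signals without background subtraction, normalised between arrays by cyclic loess, and slide is a block in every test. The lowest correlation of a pair of arrays over the tested miRNAs was 0.929. Each probe has its own brightness, so levels are compared between arrays and never between miRNAs.

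In these values, no member passed the FDR-adjusted threshold of 0.05 (limma) at any dose or over the dose trend. At 25 mg/kg/day 0 of 5 members were called, beside 0% of the 69 miRNAs tested. At 50 mg/kg/day it was 0 of 5 beside 2.9%, at 75 mg/kg/day 0 of 5 beside 5.8%, and over the trend 0 of 5 beside 10.1%. At an unadjusted P under 0.05 the members counted 2, 1, 2 and 1 in the same order, beside 10.1%, 15.9%, 26.1% and 23.2% of all miRNAs. The 95% intervals of the members' fold changes lay between 0.978 and 1.17 at 25, between 0.914 and 1.15 at 50 and between 0.933 and 1.21 at 75 mg/kg/day. As a reference, miR-34a, a known target of p53, was higher at 75 mg/kg/day by 2.07 ± 0.18 (log2, SE) in the same fit. The intervals and this change are both of signals that include background.

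**Figure D1:**
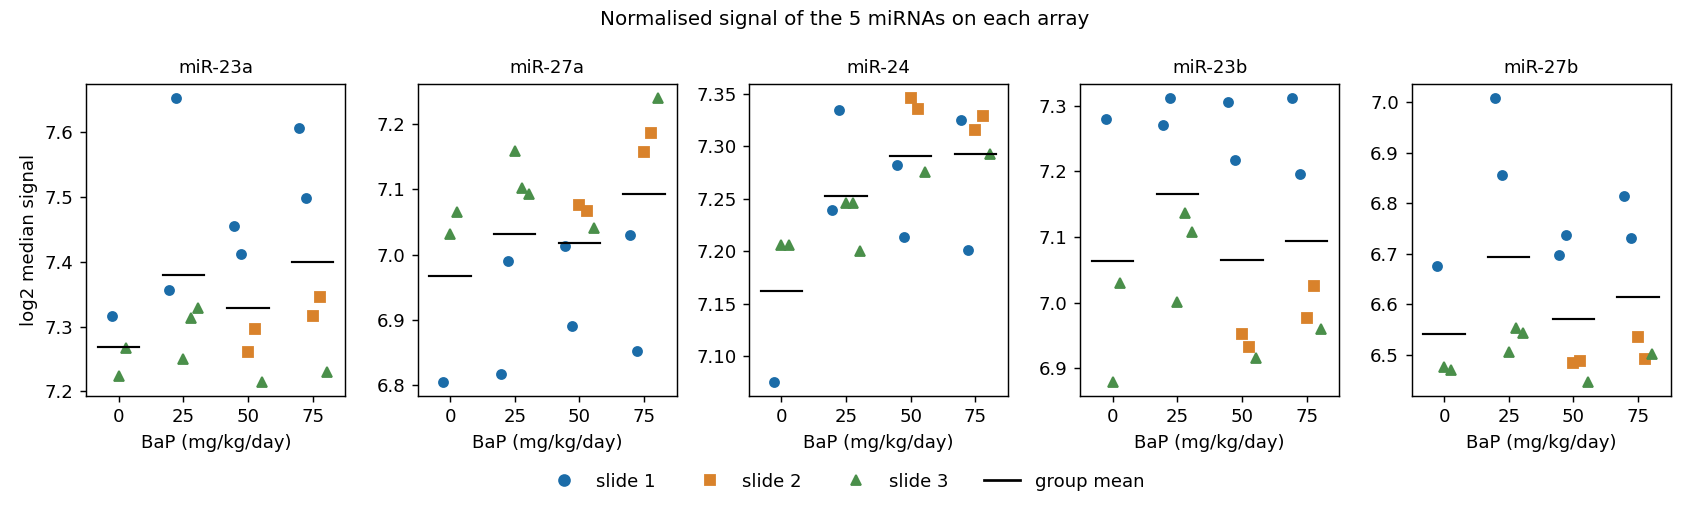
Normalised log2 median signal of the 5 miRNAs (1 panel each, own vertical axis) on each of the 18 arrays against BaP dose, with the slide as colour and shape and the group mean as a line. miR-23b and miR-27b on slide 1 sit above slides 2 and 3 at every dose, miR-27a on slide 1 sits below them, and the group means of each miRNA differ by less than the slides do except for miR-24.

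miR-27a, of the a cluster, was the member with the smallest P at the highest dose. Its log2 signal was 6.81, 7.03 and 7.06 in the controls, of which the first is on slide 1. At 25 mg/kg/day it was 6.82, 6.99, 7.16, 7.10 and 7.09, and at 50 mg/kg/day 7.01, 6.89, 7.08, 7.07 and 7.04. At 75 mg/kg/day it was 7.03, 6.85, 7.16, 7.19 and 7.24. The groups overlapped over all arrays. Within slides, every array at 75 mg/kg/day that had a control on its slide (3 of 3) was above that slide's controls, beside 17.4% of all miRNAs. At 25 mg/kg/day every array (5 of 5) was so, beside 4.35%. On slide 1 this rests on a single control, the lowest miR-27a array of all. The change from control was 0.08 ± 0.05 (SE) at 25, 0.08 ± 0.06 at 50 and 0.15 ± 0.06 at 75 mg/kg/day, with FDR-adjusted P of 0.544, 0.467 and 0.0926 (limma). The slope was 0.05 ± 0.02 per 25 mg/kg/day (unadjusted P 0.0172, FDR-adjusted P 0.0975, limma). In an exact permutation of dose within slides the slope had an unadjusted P of 0.0251 over 1587600 arrangements. Taken within slide 1 alone, the 75 mg/kg/day arrays were 0.14 above control, and within slide 3 alone 0.19. Without replicate 2 at 75 mg/kg/day, an array on slide 1, the change at that dose became 0.20 and passed the threshold (FDR-adjusted P 0.0304, limma). No other omission of a single array gave a call at that dose. Over all such omissions the change ran from 0.13 to 0.20, with FDR-adjusted P of 0.0304 to 0.444 (limma). With all arrays and the dimmer probe averaged in (no filter on dim probes), the change was 0.04 at 25 and 0.009 at 50 mg/kg/day.

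miR-24, shared by both clusters, read 7.08, 7.21 and 7.21 in the controls. The arrays at 25 mg/kg/day read 7.24, 7.33, 7.25, 7.25 and 7.20, those at 50 mg/kg/day 7.28, 7.21, 7.35, 7.34 and 7.28, and those at 75 mg/kg/day 7.33, 7.20, 7.32, 7.33 and 7.29. The 50 mg/kg/day arrays were above all controls without regard to slide, as was so for 4.35% of all miRNAs. At 75 mg/kg/day replicate 2 was below the slide 3 controls. Changes were 0.09 ± 0.04 at 25, 0.11 ± 0.05 at 50 and 0.11 ± 0.05 (SE) at 75 mg/kg/day, each with an unadjusted P under the 0.05 threshold and FDR-adjusted P of 0.438, 0.224 and 0.128 (limma). The single control on slide 1 was the lowest miR-24 array of all, and without it the changes were 0.05, 0.06 and 0.06, with unadjusted P of 0.298, 0.286 and 0.273 (limma). With all arrays, the 75 mg/kg/day arrays exceeded control by 0.19 on that slide and by 0.09 on slide 3. The brighter of its probes gave 0.15 ± 0.05 and the dimmer 0.07 ± 0.05 at 75 mg/kg/day (FDR-adjusted P 0.0508 and 0.455 over all probes, limma).

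miR-23a, the other a copy, did not move evenly across slides. Its controls were at 7.32, 7.22 and 7.27, and the arrays at 75 mg/kg/day at 7.61, 7.50, 7.32, 7.35 and 7.23. The arrays at 25 mg/kg/day were at 7.36, 7.65, 7.25, 7.31 and 7.33, and those at 50 mg/kg/day at 7.46, 7.41, 7.26, 7.30 and 7.22. The high values of each dosed group were the slide 1 arrays, and every group overlapped the controls. Its 75 mg/kg/day arrays differed from control by 0.24 on slide 1 but by -0.01 on slide 3, and the fitted change was 0.10 ± 0.06 (SE, FDR-adjusted P 0.330, limma). Without the slide 1 control it was 0.04 (FDR-adjusted P 0.918, limma).

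Neither b copy had a slope over dose past the test, at -0.0074 ± 0.018 for miR-23b and -0.0041 ± 0.020 (SE) for miR-27b per 25 mg/kg/day (FDR-adjusted P 0.856 and 0.970, limma). miR-23b ranged from 6.88 to 7.28 in the controls, and all 15 dosed arrays lay between 6.92 and 7.31. Its changes were 0.08 ± 0.05 at 25, -0.02 ± 0.05 at 50 and 0.01 ± 0.05 (SE) at 75 mg/kg/day, with FDR-adjusted P of 0.522, 0.910 and 0.967 (limma).

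miR-27b had its largest difference at the lowest dose, and the sign of that difference depended on the normalisation and on the signal used. It read 6.68, 6.48 and 6.47 in the controls and 7.01, 6.86, 6.51, 6.55 and 6.54 at 25 mg/kg/day. At 50 mg/kg/day it read 6.70, 6.74, 6.48, 6.49 and 6.45, and at 75 mg/kg/day 6.81, 6.73, 6.54, 6.49 and 6.50. Every array at 25 mg/kg/day (5 of 5) was above the controls of its own slide, beside 4.35% of all miRNAs. So were the 3 of 3 at 75 mg/kg/day, beside 17.4%, and the 50 mg/kg/day arrays were on both sides. The change at 25 mg/kg/day was 0.13 ± 0.04 (SE), with an unadjusted P of 0.00918 and an FDR-adjusted P of 0.317 (limma), and at 50 and 75 mg/kg/day it was -0.01 ± 0.05 and 0.03 ± 0.05. Only its brighter probe was used, present on 16 of 18 arrays and on 3 of 5 at 25 mg/kg/day, so the value at that dose rests partly on arrays near background. The change at 25 mg/kg/day was below 0 in the total gene signal (-0.37), with array medians centred (-0.06), with quantile normalisation (-0.04) and in the authors' table (-0.01). In the total gene signal, 1 array at 25 mg/kg/day was not detected and was set to the floor. The difference from control in that signal was 0.54 on slide 1 and -0.90 on slide 3. Relative to the median change of all miRNAs, the change was 0.16 with array medians centred and 0.10 in the authors' table. It was -0.02 with quantile normalisation and -0.41 in the total gene signal. Of 11 settings, 8 were above that median. Without the slide 1 control the change in the normalised median signal was 0.09 (unadjusted P 0.111, limma).

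At 25 and 75 mg/kg/day the fitted changes of all 5 members were above 0, where 43.5% and 39.1% of all miRNAs were, and at 50 mg/kg/day and over the trend 3 of 5 were, where 33.3% and 31.9% were. These signs depend on the scaling, since with array medians centred all 5 were below 0 at each dose, and in the authors' value table all 5 were at 25 and 4 of 5 at 50 and at 75 mg/kg/day. Relative to the median change of all miRNAs tested, which moved with the scaling, miR-23a, miR-27a and miR-24 were higher at the top dose under all 12 settings computed (0.08 to 0.28 for miR-23a, 0.06 to 0.31 for miR-27a and 0.09 to 0.29 for miR-24). miR-27b was so in each of 11, and miR-23b in 11 of 12, its lowest value being -0.01 in the authors' table. Of all miRNAs, 18.8% (13 of 69) were above that median in every setting that gave them a value, the 4 members among them, and the settings share the same arrays. At 75 mg/kg/day every array with a control on its slide was above that slide's controls for 3 of the 5 members (miR-27a, miR-27b and miR-24), beside 17.4% of all miRNAs. At 25 mg/kg/day this held for 2 members (miR-27a and miR-27b), beside 4.35%, and at 50 mg/kg/day for miR-24 alone, beside 11.6%. The median change of the members at 75 mg/kg/day was 0.10, and that of all 69 miRNAs was -0.03, with 5th and 95th percentiles of -0.22 and 0.15.

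Agilent's software also gives 1 background-subtracted value per miRNA, the total gene signal, which was scaled here to the 75th percentile of the miRNAs detected on all arrays. Subtracting background widens differences of dim miRNAs. In these values miR-24 read 109.6, 105.8 and 108.5 in the controls and 192.2, 158.4, 155.5, 166.6 and 142 at 75 mg/kg/day. miR-27a read 49.6, 44.4 and 44.1 in the controls and 85.3, 65.3, 56.6, 64.2 and 65.3 at 75 mg/kg/day. miR-23a read 147.8, 136.4 and 144.7 in the controls and 274.4, 228.1, 183.2, 203.7 and 166.4 at 75 mg/kg/day. For these 3 members every array at 75 mg/kg/day was above every control, whatever the slide, which held for 15.9% of all miRNAs.

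The corresponding log2 changes at 75 mg/kg/day were 0.47 ± 0.09 for miR-24, 0.49 ± 0.11 for miR-27a and 0.45 ± 0.11 (SE) for miR-23a. Their FDR-adjusted P were 0.00383, 0.00928 and 0.0183 (limma), so 3 of 5 members passed, beside 13% of all miRNAs that passed upward. The b copies did not, with 0.35 ± 0.12 for miR-23b (FDR-adjusted P 0.0745) and 0.24 ± 0.46 for miR-27b (0.809), which was not detected on 1 array at 25 mg/kg/day and set to the floor there. Whether a and b copies differed from each other at this dose was not tested. At 50 mg/kg/day miR-24 alone passed (0.38 ± 0.09, FDR-adjusted P 0.0213, limma), beside 5.8%. Over the trend miR-24, miR-27a, miR-23a and miR-23b passed, with slopes of 0.15, 0.16, 0.15 and 0.11 per 25 mg/kg/day and FDR-adjusted P of 0.00169, 0.00355, 0.00531 and 0.0474 (limma), beside 18.8%. At 25 mg/kg/day none did, beside 0%. As a reference on this scale, miR-34a was higher at 75 mg/kg/day by 5.05 ± 0.43 (log2, SE), against 2.07 in the normalised median signal.

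These calls depended on the scaling and, at single doses, on 1 control. The median of all 69 miRNAs was itself 0.18 above control at 75 mg/kg/day in the total gene signal, and relative to it miR-27a, miR-24 and miR-23a were at 0.31, 0.29 and 0.28. With cyclic loess in place of the percentile, 0 of 5 members passed at 75 mg/kg/day and over the trend, beside 1 and 3 of the 69 miRNAs. The changes at 75 mg/kg/day were then 0.29 for miR-27a, 0.23 for miR-24 and 0.23 for miR-23a. Without control replicate 1, the only control on slide 1, 0 of 5 passed at 75 and at 50 mg/kg/day, beside 2 and 1 of the 69. The changes of miR-27a, miR-24 and miR-23a at 75 mg/kg/day were then 0.45, 0.35 and 0.30. Over the trend 3 of 5 (these same miRNAs) passed, beside 7 of the 69. The call of miR-24 at 50 mg/kg/day was also lost without replicate 1 at that dose, with a change of 0.37 against 0.38. Over all miRNAs the calls at 75 mg/kg/day were 9 higher and 0 lower in the total gene signal, against 1 higher (1.45%) and 3 lower (4.35%) in the normalised median signal. In the processed signal, which is background-subtracted per spot, miR-27a alone passed at 75 mg/kg/day (0.39, FDR-adjusted P 0.0490, limma), beside 5.8% upward, and over the trend (slope 0.11), beside 7.25% upward.

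**Figure D2:**
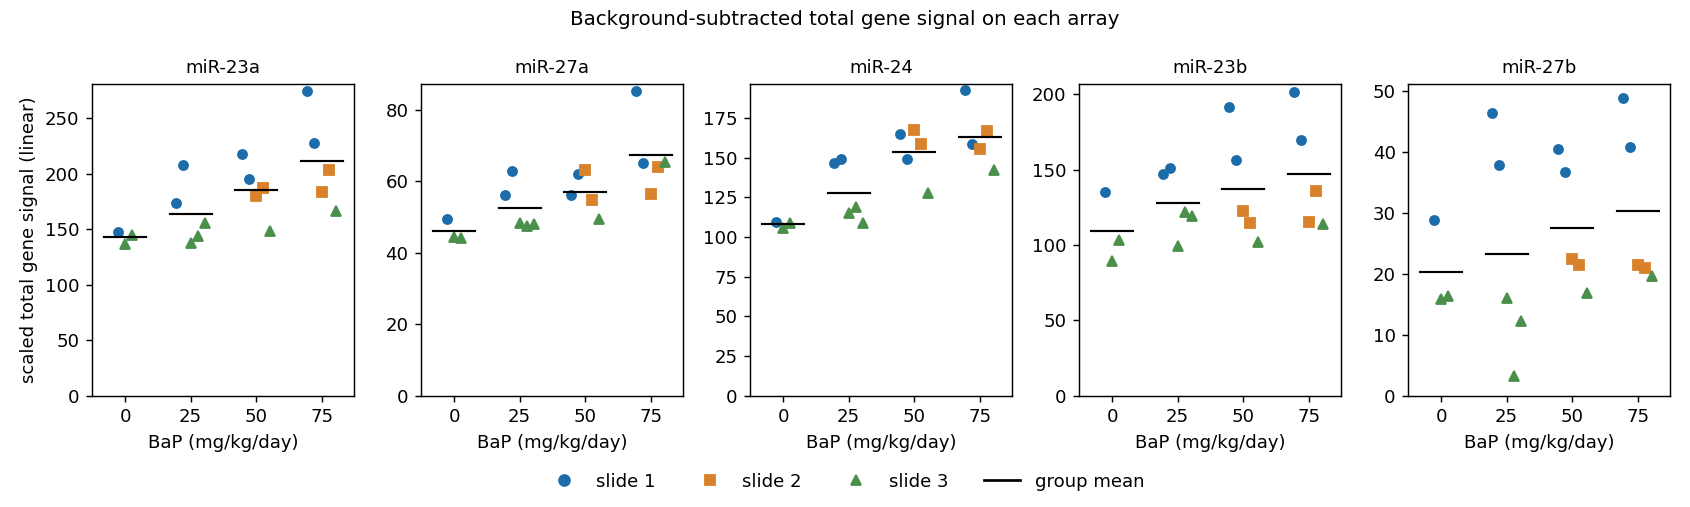
Background-subtracted total gene signal of the 5 miRNAs (linear, scaled to the 75th percentile, axes from 0) on each of the 18 arrays against BaP dose, with the slide as colour and shape and the group mean as a line. The 5 arrays at 75 mg/kg/day lie above all controls for miR-23a, miR-27a and miR-24, and the slide 1 arrays of miR-27b lie above those of the other slides.

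**Figure D3:**
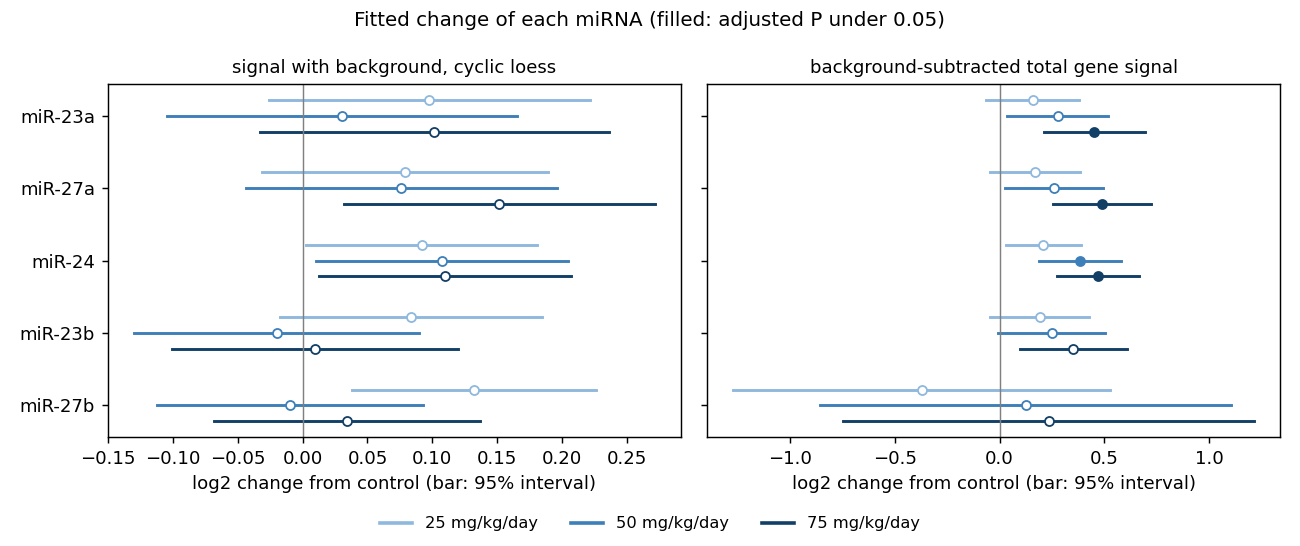
Fitted log2 change from control (horizontal axis, bars 95% intervals, limma with slide as a block) of each miRNA at 25, 50 and 75 mg/kg/day, from the normalised median signal (left) and the total gene signal (right, wider scale). Filled points passed the FDR-adjusted threshold of 0.05, which is none on the left and 4 on the right, and the right panel's calls fell to 0 with cyclic loess.

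The a and b copies were then compared within arrays, since a single scaling factor per array cancels in the difference of the 2 copies. Cyclic loess and quantile normalisation depend on brightness and do not cancel. The difference says whether the 2 signals changed unequally, and its level says nothing of abundance. These signals include background, and subtracting it widens differences of dim miRNAs. Unequal slopes of signal therefore need not be unequal changes of the copies. miR-23a minus miR-23b had a slope of 0.03 per 25 mg/kg/day (95% interval -0.01 to 0.08), with an exact permutation P of 0.166 (dose shuffled within slides, two-sided, adjusted P 0.166 over the 2 pairs). Its slope was 0.07 on slide 1, -0.01 on slide 2 and 0.0006 on slide 3, so the pooled value rests on slide 1, and without the control there it was 0.02. miR-27a minus miR-27b had a slope of 0.05 (95% interval -0.005 to 0.11), with an exact permutation P of 0.0871 (adjusted P 0.166). That slope was 0.05, 0.07 and 0.05 on slides 1, 2 and 3. It was 0.03 with array medians centred, 0.02 with quantile normalisation and -0.0019 in the authors' table, and without control replicate 1 it was 0.07 and passed (exact permutation, adjusted P 0.0486 over the 2 pairs). A difference between a and b copies in their response to dose was not detectable with all 18 arrays in these values. The intervals allow slopes of signal of up to 0.08 and 0.11. In the total gene signal the slopes were 0.16 ± 0.03 for miR-27a and 0.13 ± 0.15 (SE) for miR-27b. They were 0.15 ± 0.03 for miR-23a and 0.11 ± 0.04 (SE) for miR-23b. Neither pair difference passed there or in any other setting with all 18 arrays (lowest adjusted permutation P 0.151 for miR-23 and 0.168 for miR-27). How well the probes tell the copies of a pair apart was not tested, so these slopes describe probe signals.

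The miR-27 pair differed far more between slides than between doses. miR-27a minus miR-27b was 0.13 ± 0.16 (SD, n = 7) on slide 1, 0.62 ± 0.05 (SD, n = 4) on slide 2 and 0.60 ± 0.07 (SD, n = 7) on slide 3. The highest array of slide 1, at 0.32, was below the lowest of the other slides, at 0.55. These values include background. In them miR-27b was lower on slides 2 and 3 than on slide 1 by a fitted log2 difference of -0.26 and -0.30. miR-27a, 1 base apart, was higher by 0.18 and 0.21. In the background-subtracted total gene signal, the slide 1 arrays of miR-27a did not lie below the others. That signal was 49.6 in the slide 1 control and 44.4 and 44.1 in those of slide 3. At 75 mg/kg/day it was 85.3 and 65.3 on slide 1, 56.6 and 64.2 on slide 2 and 65.3 on slide 3. The cause was not tested. miR-23a minus miR-23b was 0.20 ± 0.12, 0.33 ± 0.02 and 0.26 ± 0.05 (SD) on slides 1, 2 and 3, where the slides overlapped.

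**Figure D4:**
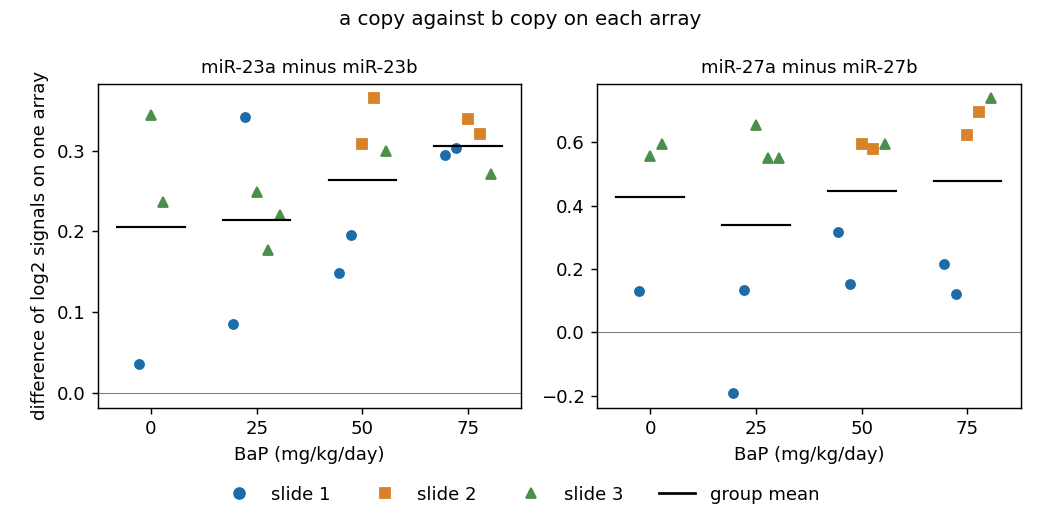
Difference of log2 signals on 1 array between the a and the b copy, for miR-23 (left) and miR-27 (right), against BaP dose, with the slide as colour and shape and the group mean as a line. For miR-27 the slide 1 arrays (-0.19 to 0.32) lie below all arrays of slides 2 and 3 (0.55 to 0.74) at every dose.

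Members of 1 cluster share a primary transcript, so their co-variation across animals was set beside that of other pairs. Slide means were removed from the log2 signals of the 18 arrays, and 10 pairs of members were compared. miR-27a and miR-24 had the highest Pearson's r, 0.68 (permutation P 0.00499, adjusted P 0.0499 over the 10 pairs), with a Spearman's rho of 0.61 (permutation P 0.0235, adjusted P 0.108). Their r was 0.83 within slide 1 and 0.59 within slide 3, 0.60 with dose means also removed, and 0.59 without the 2 arrays farthest from the median of miR-27a.

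miR-23a with miR-24 had an r of 0.62 (permutation P 0.0620, adjusted P 0.155) and a rho of 0.19 (permutation P 0.514, adjusted P 0.572), and r fell to 0.19 without the 2 farthest arrays, so the relation rests on those. With dose means also removed it was 0.62. miR-23a with miR-27a, the mates of the a cluster, had an r of 0.59 (permutation P 0.0362, adjusted P 0.121) and a rho of 0.59 (permutation P 0.0323, adjusted P 0.108), but 0.78 within slide 1 and -0.01 within slide 3, and 0.47 with dose means also removed. miR-23a with miR-23b had an r of 0.45 (permutation P 0.0192, adjusted P 0.0959) and a rho of 0.62 (permutation P 0.0069, adjusted P 0.069), and r was 0.33 with dose means also removed. The mates of the b cluster, miR-23b and miR-27b, had an r of 0.31 (permutation P 0.117, adjusted P 0.233) and a rho of 0.47 (permutation P 0.0502, adjusted P 0.125). That r was 0.21 within slide 1 and 0.82 within slide 3, and turned to -0.28 with dose means also removed.

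miR-27a and miR-27b, which differ by 1 base, had an r of 0.03 (permutation P 0.929) and a rho of 0.34 (permutation P 0.245, adjusted P 0.350). miR-24 had an r of 0.09 with miR-23b and 0.34 with miR-27b. Over all 2346 pairs of the 69 miRNAs the median r was 0.04, with quartiles of -0.27 and 0.32, and 12.3% of pairs were above 0.5, as were 3 of the 10 pairs of members. All values of an array share its labelling and normalisation, so r is not a measure of the miRNAs alone.

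**Figure D5:**
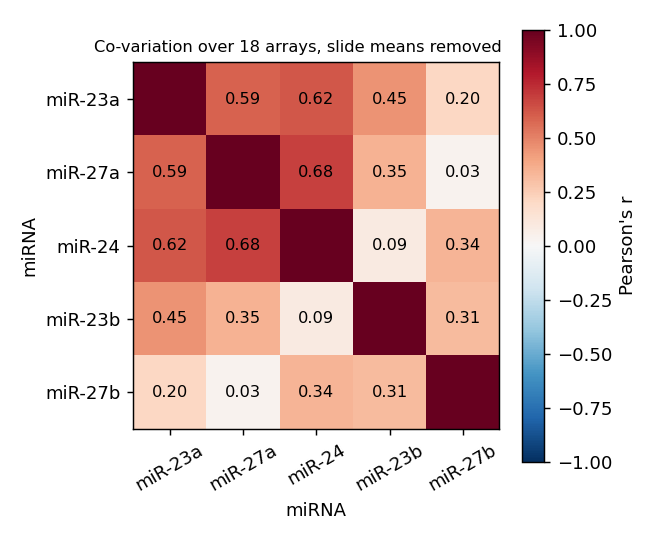
Pearson's r between the 5 miRNAs over 18 arrays after slide means were removed, from -1 (blue) to 1 (red). The 3 pairs among miR-23a, miR-27a and miR-24 are between 0.59 and 0.68, and miR-27a with miR-27b is at 0.03.

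By the same measure over the 18 arrays, the miRNAs outside the clusters most like each member were found. For miR-27a these were miR-15b (r 0.72) and miR-345-5p (0.62), which were also nearest to miR-24 (0.51 and 0.50). For miR-23b they were miR-223 (0.80) and miR-193 (0.76), and for miR-27b miR-16 (0.74) and miR-26a (0.71). miR-23a was nearest to miR-702 (0.63) among mouse miRNAs, after a probe set for a murine herpesvirus miRNA (mghv-miR-M1-2, 0.64).

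Markers of liver cell types were read beside these values, since the clusters are expressed in several of them. The hepatocyte miRNAs (miR-122, miR-192 and miR-194, 3 of 3 tested) had a summed linear signal of 11880 to 12120 in controls and 11630 to 15170 at 75 mg/kg/day. The endothelial sum rests on miR-126-3p alone (1 of 2 tested, miR-126-5p present on 0 arrays) and was 159.1 to 230.0 in controls and 153.7 to 210.2 at 75 mg/kg/day. The erythroid sum (2 of 3 tested, miR-486 present on 0 arrays) was 521.8 to 783.3 and 279.9 to 1121. The leukocyte sum, from miR-223 alone (1 of 5 tested, miR-142-5p, miR-150 and miR-155 present on 0 arrays), was 75.7 to 79.8 and 74.7 to 79.4. The mesenchymal sum, from miR-199a-3p alone (1 of 5 tested, with miR-214, miR-143 and miR-145 present on 0 arrays), was 94.8 to 101.3 in controls and 77.5 to 90.7 at 75 mg/kg/day. miR-199a-3p fell by 0.22 on the log2 scale at that dose (FDR-adjusted P 0.00931, limma). Its part in the members' values was not tested.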

How the data were processed

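Total RNA enriched in small RNA was labelled with cyanine 3-pCp, and each sample was hybridised to a 1-colour Agilent mouse miRNA array. Images were extracted with Agilent Feature Extraction 10.7.3.1, per the labels. The deposited scanner files hold linear spot intensity values, with no normalisation across arrays, for 12493 spots per array (11540 not controls) and 1712 probes. The authors also deposited a table of log2 values per miRNA, whose centring is unknown, used as an alternative only. Depth has no meaning for arrays, and the number of arrays limits precision.

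Per the study's methods, median signals were used without background subtraction, normalised by cyclic loess, summarised by the median over replicate spots and fitted with slide as a block. Outlier spots were removed and present probes averaged. A probe was kept when present on at least a 0.8 share of the arrays of a group, which left 112 probes and 69 miRNAs. Models were fitted with limma 3.58.1 in R 4.3.3 to all 18 arrays, two-sided, with Benjamini-Hochberg adjustment over the 69 miRNAs and a threshold of 0.05. Pair slopes were tested by exact permutation of dose within slides and correlations by 100000 permutations within slides. The study used residual shuffling, run here as an alternative with 100 shuffles. The fitting code was tested on simulated data.

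Groups came from the exposure labels. Replicate numbers follow accession order and only name arrays. Two-sided intervals cover 95%. The members and lists were chosen with earlier results of these data known. miRNAs named were the members, the passenger strands, miR-34a, marker miRNAs and the 2 nearest neighbours of each member. Of the 5 members, 4 matched a RefSeq mature sequence (not miR-23b). Other control animals of the study were not analysed here, and the study reports removing arrays after boxplot and cluster checks.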

Additional observations from a re-analysis of the deposited data

Results flagged for a closer look

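In 2 of the 21 groups of 5 arrays examined (members and pair differences at each dose), 1 array stood apart by the ratio of its gap to the group's range. Chance gives about 1 in 20 such groups when their arrays are alike, but these groups span slides, the values were not adjusted for slide, and both arrays were on slide 1. miR-23a on replicate 2 at 25 mg/kg/day, on slide 1, was at 7.65 (log2), while the other 4 lay between 7.25 and 7.36, a ratio of 0.735 against a critical 0.71. miR-24 on replicate 2 at 75 mg/kg/day, also on slide 1, was at 7.20, while the other 4 lay between 7.29 and 7.33, a ratio of 0.714. Neither result was called with or without these arrays in the normalised median signal, and miR-27a was called at 75 mg/kg/day without the second of them.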

How the results depend on the processing

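The normalised median signal called no member at any dose or over the trend, and this was also so with quantile normalization, array medians centred, the authors' values, the brightest probe, no filter on dim probes, probes present on every array, outlier spots kept, no slide term, slide as a random block and residual shuffling. The exceptions were the processed signal, with 1 member at 75 mg/kg/day and 1 over the trend (miR-27a, 0.39 and 0.11, FDR-adjusted P 0.0490 and 0.0490, limma), and the total gene signal, with 1 at 50, 3 at 75 mg/kg/day and 4 over the trend. Leaving out each array in turn gave 0 to 1 members at 75 mg/kg/day and 0 to 1 over the trend, miR-27a in each case. It was called at 75 mg/kg/day without replicate 2 at that dose and over the trend also without replicate 5 at 50 mg/kg/day (slope 0.05, FDR-adjusted P 0.0484, limma). In the total gene signal the same gave 0 to 1 members at 50, 0 to 4 at 75 mg/kg/day and 3 to 4 over the trend, and cyclic loess of that signal gave 0 in all. The 0 at 50 mg/kg/day came without control replicate 1 and without replicate 1 at that dose (miR-24 at 0.26 and 0.37 against 0.38 with all arrays), and the 0 at 75 mg/kg/day without control replicate 1. These alternatives to the total gene signal were chosen after seeing the data. miR-27b had no value with probes present on every array.

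Signs of small changes depended on the scaling. With array medians centred, where the median of all miRNAs was -0.23, -0.25 and -0.25 at 25, 50 and 75 mg/kg/day, miR-23a was at -0.22, -0.25 and -0.15, miR-27a at -0.20, -0.18 and -0.10, and miR-24 at -0.23, -0.17 and -0.16. miR-23b was then at -0.19 at 25 and -0.21 at 75 mg/kg/day, miR-27b at -0.063 and -0.14, and the slopes of miR-23a, miR-24 and miR-27a were -0.036, -0.034 and -0.015. In the authors' values, where that median was -0.11, -0.064 and -0.11, miR-23a was at -0.11, -0.078 and -0.024 and miR-27a at -0.067, -0.085 and -0.044, with a slope of -0.0099. There miR-23b was at -0.021 and -0.12 and miR-27b at -0.014 and -0.026 at 25 and 75 mg/kg/day, and miR-24 at -0.14 at 25 mg/kg/day.

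Quantile normalization put miR-27b at -0.037 at 25 and 0.0019 at 50 mg/kg/day with a slope of 0.010, and miR-23b at 0.019 at 50 mg/kg/day with a slope of 0.0042. The total gene signal put miR-27b at -0.37 at 25 and 0.13 at 50 mg/kg/day with a slope of 0.13, and miR-23b at 0.25 at 50 mg/kg/day with a slope of 0.11. The processed signal put miR-23b at 0.22 and miR-27b at 0.15 at 50 mg/kg/day, with slopes of 0.065 and 0.079. The brightest probe, and probes present on every array, gave miR-23b 0.019 at 50 mg/kg/day and a slope of 0.010. Without a slide term, miR-23b was at 0.0012 and miR-27b at 0.030 at 50 mg/kg/day, with a slope of 0.0017 for miR-27b. Leave-one-out ranges that crossed 0 were -0.031 to 0.060 (miR-23a), -0.065 to 0.0082 (miR-23b) and -0.061 to 0.012 (miR-27b) at 50 mg/kg/day, -0.034 to 0.038 (miR-23b) and -0.018 to 0.057 (miR-27b) at 75 mg/kg/day, and -0.021 to 0.0001 (miR-23b) and -0.024 to 0.006 (miR-27b) for the slopes. The slope of miR-27a minus miR-27b was -0.0019 in the authors' values and 0.037 to 0.067 when leaving out each array, and passed without control replicate 1 (0.067, exact permutation, adjusted P 0.0486 over the 2 pairs). The cause of these shifts was not tested.

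No paired analysis was possible, since each array is from a different animal that belonged to a single dose group. The labels carry no replicate numbers, and the numbers used follow accession order. Control arrays numbered 3, 1 of them on slide 1 and 0 on slide 2, so the change of every dose leans on few controls. Dim probes close to background, as those of miR-27b, limit what can be seen.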
